A study of Homo sapiens with 12 samples.

Results

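Transcripts of 6 genes that handle quinones and peroxides were followed in 12 mRNA sequencing libraries of cultured human neuroblastoma cells: the quinone reductases NQO1 and NQO2, thioredoxin (TXN), sulfiredoxin (SRXN1) and the peroxiredoxins PRDX1 and PRDX6. They were taken from a table of 61552 Ensembl genes by gene symbol, each symbol matched 1 identifier, and all 6 passed the filter on low counts. The libraries form 4 groups of 3: SK-N-BE(2) cells kept overnight with ML210, control SK-N-BE(2) cells, SK-N-AS cells kept overnight with ML210 and control SK-N-AS cells, all given as wild type. SK-N-BE(2) and SK-N-AS are established neuroblastoma cell lines, which the design describes as carrying and lacking MYCN amplification, so that the effect of MYCN status cannot be told apart from that of the line. ML210 covalently blocks GPX4, a selenium-dependent peroxidase of membrane lipids whose loss can trigger ferroptosis, and the series asks how both kinds of line respond to it. Neither its dose nor what the controls received is given in the sources used here. Each group has 1 library from each of 3 labelled batches, nothing states that these were separate cultures, and p-values therefore measure only the spread between libraries.

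Cells clear peroxides and quinones through linked enzymes. Peroxiredoxins reduce hydrogen peroxide with a cysteine that thioredoxin then restores, thioredoxin reductase recharges thioredoxin with electrons from NADPH, and sulfiredoxin rescues peroxiredoxins whose cysteine was overoxidized. PRDX6 differs in having a single catalytic cysteine, in relying on glutathione rather than thioredoxin, and in reducing phospholipid peroxides. NQO1 and NQO2 reduce quinones by transferring both electrons at once, NQO1 from NADH or NADPH and NQO2 from dihydronicotinamide riboside. NQO1, TXN, SRXN1 and PRDX1 are textbook targets of the transcription factor NRF2 (gene NFE2L2), which binds antioxidant response elements when KEAP1 no longer marks it for degradation.

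Library totals lay between 54047293 and 83481963 counted reads. MYCN went against the line labels: it averaged 0.154 and 0.166 CPM (read counts on a common depth scale, with TMM factors) in the ML210 and control libraries labelled SK-N-BE(2), and 3855 and 3558 CPM in those labelled SK-N-AS. The libraries are therefore named by their labels, and each difference between lines below is one between labels that MYCN contradicts. Of 7 adrenergic neuroblastoma markers none was at 0 in any group, but the catecholamine enzymes were nearly absent in libraries labelled SK-N-BE(2). There TH averaged 0.124 CPM with ML210 and 0.372 CPM in controls, and DBH 4.47 and 5.06 CPM, while labelled SK-N-AS TH averaged 252 and 292 CPM and DBH 561 and 632 CPM. PHOX2A (79.8 and 129 CPM) and ISL1 (35.7 and 39.2 CPM) were also lower labelled SK-N-BE(2) than labelled SK-N-AS (505 and 609 CPM, and 112 and 106 CPM), and HAND2 averaged at least 491.3 CPM in every group. The summed level of 4 leukocyte markers ran from 163 to 289 CPM in ML210 and from 263 to 329 CPM in control libraries labelled SK-N-BE(2), nearly all of it PTPRC (CD45), with CD3E at 0; its part in the results was not tested. Those labelled SK-N-AS had sums of at most 3.27 CPM. GPX4, the target of ML210, was not called labelled SK-N-BE(2) (edgeR adjusted p = 0.667) or SK-N-AS (adjusted p = 0.751). Among the libraries labelled SK-N-BE(2), ML210 replicate 3 stood apart. Of the 166 genes called higher with ML210 there, it was the ML210 library nearest to the controls for 149 (89.8%), and for 79 of the 113 called lower (69.9%). The reason was not tested.

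The promoter letters of NQO1, NQO2, TXN and SRXN1 are shown because antioxidant response elements are the known route from NRF2 to such genes, and the 4 include both genes with the largest ML210 differences and TXN, which was not called. Each sequence is the 250 bases before the RefSeq start on GRCh38.p14, 5′ to 3′ on the gene's strand, with capitals for the GC box GGGCGG and the TATA box TATAAA on either strand.
NQO1 (chr16:69726561-69726810, minus strand): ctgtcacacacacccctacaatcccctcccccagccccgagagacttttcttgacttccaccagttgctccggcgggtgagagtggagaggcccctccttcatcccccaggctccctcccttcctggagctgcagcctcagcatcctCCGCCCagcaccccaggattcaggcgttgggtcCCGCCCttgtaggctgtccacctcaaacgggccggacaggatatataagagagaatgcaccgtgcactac
NQO2 (chr6:2999644-2999893, plus strand): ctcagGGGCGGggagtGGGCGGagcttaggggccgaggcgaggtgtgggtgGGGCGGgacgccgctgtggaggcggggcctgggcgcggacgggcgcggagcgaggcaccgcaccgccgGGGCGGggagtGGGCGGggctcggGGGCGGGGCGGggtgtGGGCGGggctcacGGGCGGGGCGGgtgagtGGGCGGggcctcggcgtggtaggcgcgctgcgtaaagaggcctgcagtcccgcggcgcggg
TXN (chr9:110256508-110256757, minus strand): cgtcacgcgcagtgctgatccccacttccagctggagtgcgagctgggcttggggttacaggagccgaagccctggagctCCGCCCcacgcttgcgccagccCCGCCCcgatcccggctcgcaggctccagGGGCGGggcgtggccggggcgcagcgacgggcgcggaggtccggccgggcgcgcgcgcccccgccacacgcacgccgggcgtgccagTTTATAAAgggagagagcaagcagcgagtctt
SRXN1 (chr20:653201-653450, minus strand): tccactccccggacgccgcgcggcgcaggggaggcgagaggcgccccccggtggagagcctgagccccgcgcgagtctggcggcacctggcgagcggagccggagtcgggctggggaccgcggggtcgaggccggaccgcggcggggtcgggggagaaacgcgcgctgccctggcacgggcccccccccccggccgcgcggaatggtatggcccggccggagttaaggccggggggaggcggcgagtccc
RefSeq promoter entries were matched for these 4 of the 6 genes. The antioxidant response element core TGACNNNGC, searched on both strands, had no match in any of the 4 windows, and 10.9% of all 35116 RefSeq windows of this length held it. The GC box matched 11 times in NQO2, 3 times in TXN, 2 times in NQO1 and not in SRXN1 (42.6% of all windows had at least 1). The TATA box matched in TXN only, with 2 overlapping matches on opposite strands (10.7% of all windows). Some neighbouring GC boxes of NQO2 overlap one another. A match or its absence describes these letters and not a bound site. Bases outside these windows were not searched, so an element lying there would have been missed. For NQO2 the window lies within the annotated gene, which begins at base 2987987, so the letters before that annotated start are not shown.

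Per kilobase of annotated exon, PRDX1 had the highest mean of 4 of the genes in every group, and NQO1 the lowest. Exon lengths were summed over all annotated transcripts of a gene, whether expressed or not. The order of genes with close values is therefore uncertain. With ML210 in libraries labelled SK-N-BE(2), PRDX1 stood at 263 ± 35.3 CPM per kilobase (SD, n = 3), PRDX6 at 208 ± 18.9, TXN at 170.2 ± 26.7 and NQO1 at 96.2 ± 7.59. In the controls labelled SK-N-BE(2) PRDX1 (185 ± 8.33) and PRDX6 (184 ± 13.0) did not differ beyond their spread, followed by TXN (132 ± 7.35) and NQO1 (60.3 ± 5.80). In libraries labelled SK-N-AS the order was PRDX1, TXN, PRDX6 and NQO1, with PRDX1 at 221 ± 5.67 with ML210 and 196 ± 10.9 in controls, and NQO1 at 19.1 ± 0.857 and 10.2 ± 0.907. NQO2 and SRXN1 are left out of this ordering. The exons of all NQO2 transcripts add up to 11558 bases, which lowers its value per kilobase. For SRXN1, 85.0% of its 2698 exon bases also belong to another protein-coding gene on the same strand (ENSG00000270299), and reads there may have been assigned to neither gene. That gene had 64 reads over the 12 libraries, SRXN1 2895. The level of SRXN1 is therefore uncertain.

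**Figure D1:**
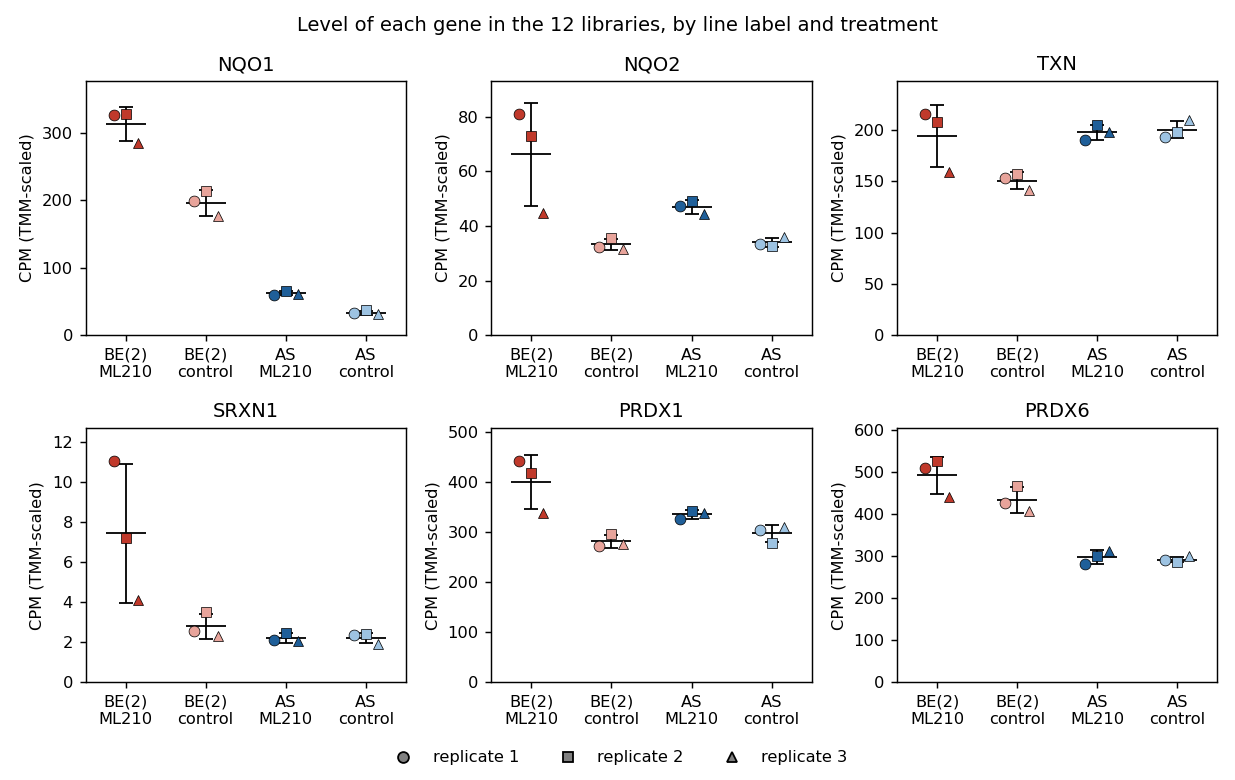
CPM of each gene in each of the 12 libraries, with the group mean and SD as black bars, n = 3 per group; symbols mark the replicate. NQO1 separates all 4 groups without overlap, and replicate 3 (triangle) is the lowest ML210 library labelled SK-N-BE(2) in all 6 panels.

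In the libraries labelled SK-N-BE(2), ML210 raised 4 of the 6 genes: SRXN1 2.67-fold, NQO2 1.99-fold, NQO1 1.60-fold and PRDX1 1.42-fold. None fell, and TXN and PRDX6 did not pass the test. All 6 were higher with ML210 in all 3 same-batch pairs. Over all 20304 genes tested, 0.818% were called higher and 0.557% lower in this comparison, by the edgeR quasi-likelihood test with Benjamini-Hochberg adjustment at an adjusted p under 0.05 (1.37% in either direction). With the batch label as a block within each line the genes called in either direction numbered 1386, against 279 without it.

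NQO1 (ENSG00000181019, chromosome 16, 69706996 to 69726951, minus strand, GRCh38) is the quinone reductase most used as a readout of NRF2. It stood at 327, 328 and 285 CPM in ML210 libraries labelled SK-N-BE(2), against 198, 214 and 176 CPM in their controls. The groups did not overlap, and the lowest ML210 library exceeded the highest control. The log2 difference was 0.67 (SE 0.083, 95% interval 0.50 to 0.85, edgeR adjusted p = 0.00341). An annotated antisense gene covers 575 of its 3254 exon bases and had 0 reads in every library.

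NQO2 (ENSG00000124588, chromosome 6, 2987987 to 3028869, plus strand) had 81.0, 73.0 and 44.9 CPM with ML210 labelled SK-N-BE(2), against 32.3, 35.6 and 31.7 CPM in controls. ML210 replicate 3 was the low one, yet above every control. The log2 difference was 1.00 (SE 0.168, edgeR adjusted p = 0.0195). Other genes overlap 292 exon bases of NQO2 on the same strand (LINC01011) and 631 on the opposite strand (HTATSF1P2), with 585 and 1096 reads over all libraries against 35305 for NQO2.

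SRXN1 (ENSG00000271303, chromosome 20, 646615 to 653370, minus strand), the enzyme that repairs overoxidized peroxiredoxins, was the scarcest of the 6 by CPM. It had 11.0, 7.18 and 4.11 CPM in ML210 libraries labelled SK-N-BE(2), against 2.56, 3.49 and 2.30 CPM in controls. The ML210 libraries spread widely, and the lowest still lay above the highest control. The log2 difference was 1.41 (SE 0.289, 95% interval 0.79 to 2.04, edgeR adjusted p = 0.0313), from 1464 reads with ML210 and 576 in controls.

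PRDX1 (ENSG00000117450, chromosome 1, 45511036 to 45523047, minus strand), an abundant cytosolic peroxiredoxin, had 442, 419 and 340 CPM with ML210 labelled SK-N-BE(2), against 273, 297 and 276 CPM in controls. Again replicate 3 was the lowest ML210 library and the groups did not overlap. The log2 difference was 0.51 (SE 0.0826, edgeR adjusted p = 0.0124). MMACHC on the opposite strand overlaps 379 of its 1522 exon bases and had 12022 reads over all libraries against 258981, and the processed pseudogene PRDX1P1 had 196.

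Thioredoxin itself, TXN (ENSG00000136810, chromosome 9, 110243811 to 110256640, minus strand), had 216, 208 and 159 CPM with ML210 labelled SK-N-BE(2), against 154, 157 and 141 CPM in controls. ML210 replicate 3 lay just above the highest control. The log2 difference of 0.37 (SE 0.0921, 95% interval 0.17 to 0.57) missed the threshold (edgeR adjusted p = 0.0685). It passed without ML210 replicate 3 (log2 0.47, adjusted p = 0.00079), with the batch block within each line (0.36, adjusted p = 0.00418) and with DESeq2 (0.35, adjusted p = 0.0239). TXN was called in only 4 of all 13 alternative settings, and in 1 of the 6 fits that each left out 1 library. The highest edgeR adjusted p of TXN in those 6 fits was 0.318. Its 7 processed pseudogenes in the table held at most 595 reads each, over all libraries, against 145979 for TXN.

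PRDX6 (ENSG00000117592, chromosome 1, 173477266 to 173488807, plus strand) had 510, 526 and 442 CPM with ML210 labelled SK-N-BE(2), against 428, 468 and 408 CPM in controls. It was the one gene of the 6 whose groups overlapped here. Its log2 difference was 0.18 (SE 0.072, 95% interval 0.02 to 0.34, edgeR adjusted p = 0.274). It passed in 1 of 13 alternative settings, the batch block within each line (adjusted p = 0.0465). Groups without overlap and higher with ML210 were thus found for 5 of the 6 genes, against 9.22% of all genes.

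Labelled SK-N-BE(2), NQO1 had the narrowest range of the 6 genes between batches. In same-batch pairs labelled SK-N-BE(2) the log2 difference of NQO1 was 0.72, 0.62 and 0.69 in batches 1, 2 and 3. For SRXN1 it was 2.09, 1.03 and 0.83, for NQO2 1.32, 1.04 and 0.50, and for PRDX1 0.69, 0.50 and 0.30. TXN (0.49, 0.41 and 0.17) and PRDX6 (0.25, 0.17 and 0.12) also had their highest value in batch 1 and their lowest in batch 3. Over the 166 genes called higher in this comparison the median was 0.748, 0.603 and 0.398 in the same batches, so that this spread between batches was not confined to these genes.

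**Figure D2:**
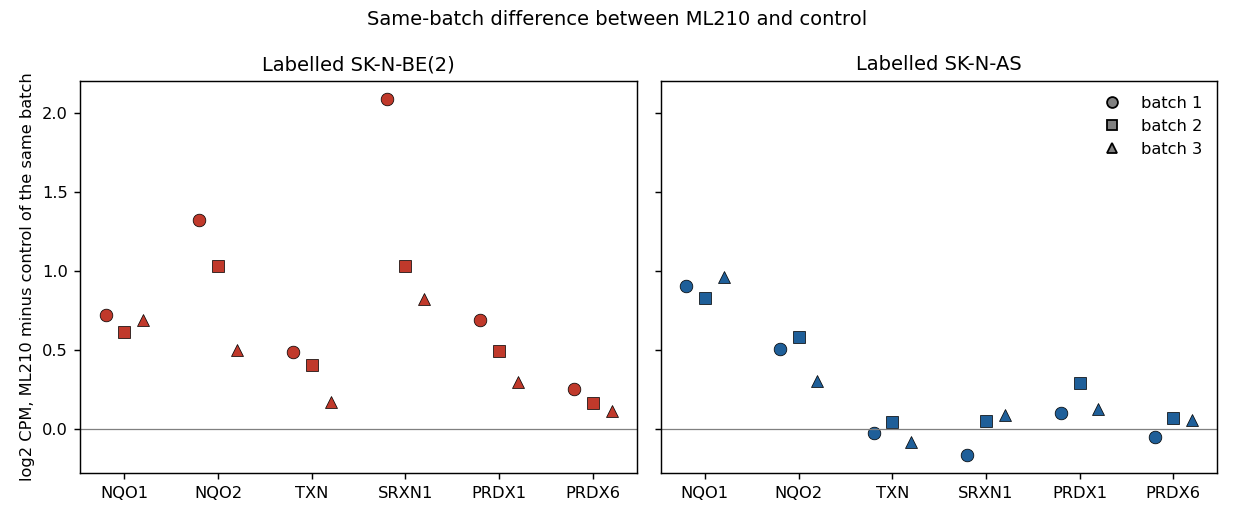
Log2 CPM of ML210 minus that of the control of the same batch, for each gene and batch, labelled SK-N-BE(2) at left and SK-N-AS at right. At left NQO1 lies between 0.62 and 0.72 in all batches, while SRXN1 runs from 0.83 to 2.09; at right the values of TXN, SRXN1 and PRDX6 lie on both sides of 0.

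Leaving out single libraries separated NQO1 from the rest. NQO1 stayed called in all 6 fits that each left out 1 library labelled SK-N-BE(2), with log2 differences of 0.57 to 0.73 and adjusted p of 0.000314 to 0.0268. NQO2 and SRXN1 were called only in the fit without ML210 replicate 3 (edgeR adjusted p = 2.8e-06 and 0.000758), and otherwise had adjusted p of up to 0.1 and 0.137. PRDX1 was called without ML210 replicate 3 and without control replicate 2, and without ML210 replicate 2 its adjusted p was 0.0713. The directions of all 6 held in these fits. The count of 4 genes called was 5 without ML210 replicate 3. It fell to 1 without ML210 replicate 1 or 2 or without control replicate 1 or 3, to 2 without control replicate 2, and to 1 in a fit of these 6 libraries alone. The number of calls over all genes also changed widely between these fits, as given in the last section.

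**Figure D3:**
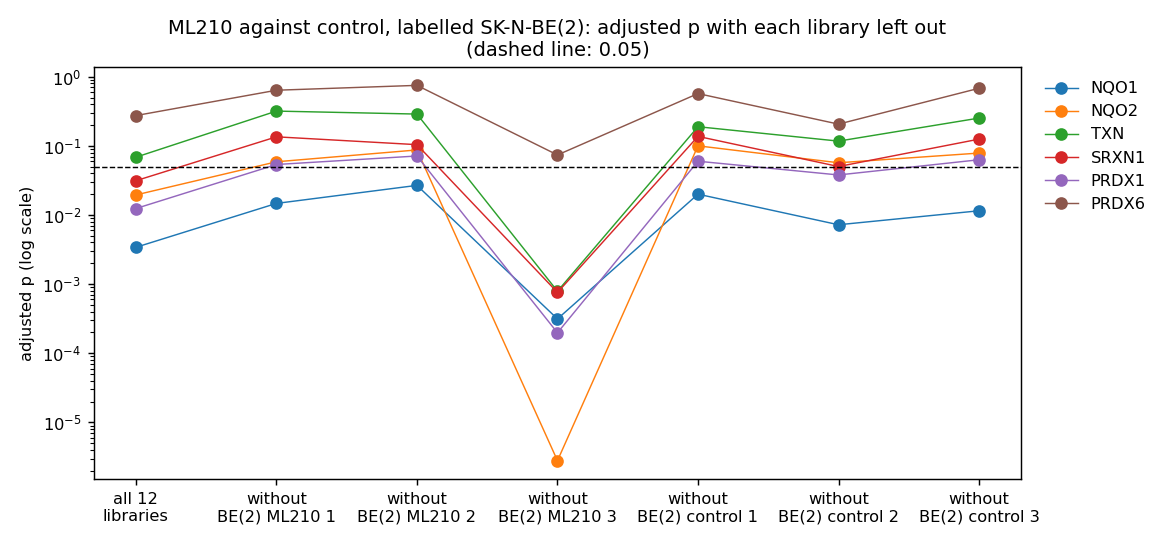
Adjusted p of the edgeR test of ML210 against control labelled SK-N-BE(2), on a log axis, for each gene with all 12 libraries and with 1 library left out at a time; the dashed line marks 0.05. NQO1 lies below the line in every fit, PRDX6 above it in every fit, and all genes drop without ML210 replicate 3.

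In the libraries labelled SK-N-AS, NQO1 alone of the 6 genes passed the test, rising 1.86-fold with ML210. It had 60.04, 65.2 and 60.9 CPM with ML210, against 32.1, 36.7 and 31.2 CPM in controls, and its log2 difference was 0.90 (SE 0.0849, 95% interval 0.71 to 1.08, edgeR adjusted p = 0.000711). Of all 20304 genes 5 were called higher, 0.0246% (0.0296% in either direction). NQO1 stayed called in all 6 fits without 1 library of these groups (adjusted p 0.00116 to 0.0108). The same-batch differences of 0.90, 0.83 and 0.96 all pointed the same way. Replicates 2 and 3 of these groups held traces of genes typical of the other label, with PTPRC at 0.443 to 0.841% of its level there. The part of these traces in the NQO1 difference was not tested; in batch 1, where PTPRC was at 0 in both libraries, the difference was 0.90.

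NQO2 stood at 47.5, 49.1 and 44.2 CPM in ML210 libraries labelled SK-N-AS, against 33.4, 32.7 and 35.9 CPM in controls. The groups did not overlap, but the log2 difference of 0.47 (SE 0.167, 95% interval 0.10 to 0.83) had an edgeR adjusted p of 0.627. It was 0.0259 in a fit of these 6 libraries alone, the 1 of 13 alternative settings that called NQO2 here. PRDX1 had 326, 342 and 339 CPM with ML210 against 304, 279 and 310 CPM in controls, again without overlap (log2 0.17, 95% interval -0.005 to 0.35, edgeR adjusted p = 0.741). NQO1, NQO2 and PRDX1 make 3 of 6 genes without overlap and higher, against 6.01% of all genes.

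TXN, SRXN1 and PRDX6 had overlapping groups labelled SK-N-AS. TXN had 191, 205 and 198 CPM with ML210, against 193, 199 and 209 CPM in controls, and a log2 difference of -0.02 with a 95% interval of -0.22 to 0.18. SRXN1 had 2.09, 2.48 and 2.06 CPM with ML210, against 2.34, 2.39 and 1.93 CPM in controls, and a wider interval of -0.64 to 0.63 around -0.01, from 404 reads with ML210 and 451 in controls. PRDX6 had 280, 301 and 312 CPM with ML210, against 290, 287 and 299 CPM in controls (log2 0.03, 95% interval -0.13 to 0.18). These intervals show how large a change could have gone uncalled.

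**Figure D4:**
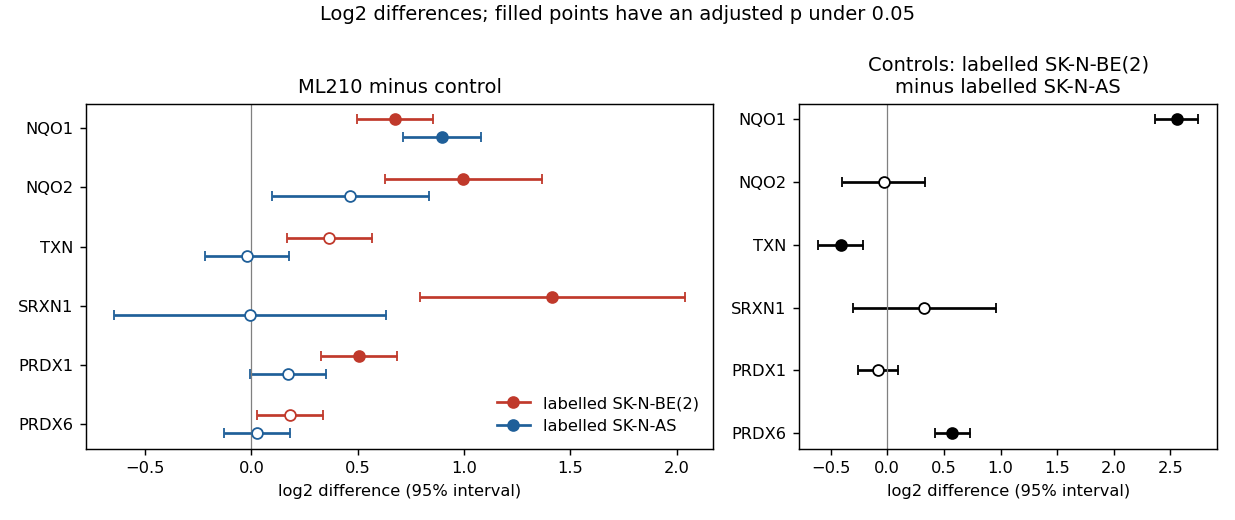
Log2 differences with 95% intervals from the edgeR fit of 12 libraries, ML210 minus control for each line label at left and the controls of both labels at right; filled points were called. SRXN1 has the largest ML210 difference labelled SK-N-BE(2), 1.41, and NQO1 the largest between the controls, 2.56.

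Whether the ML210 responses of the line labels differed was tested directly, and none of the 6 genes passed (0.00493% of all genes did, 1 gene). At an unadjusted p under 0.05 there were 4 of 6, against 7.16% of all genes, and DESeq2 also called 0. The log2 response labelled SK-N-BE(2) minus that labelled SK-N-AS was 1.42 for SRXN1 (95% interval 0.53 to 2.31, edgeR adjusted p = 0.508), 0.53 for NQO2 (0.01 to 1.05, adjusted p = 0.69), 0.39 for TXN (0.11 to 0.67, adjusted p = 0.574) and 0.33 for PRDX1 (0.08 to 0.58, adjusted p = 0.6). For NQO1 it was -0.22 (-0.48 to 0.03, adjusted p = 0.745), the one gene of the 6 with the larger response labelled SK-N-AS, and for PRDX6 0.15 (-0.07 to 0.37, adjusted p = 0.802). Without ML210 replicate 3 labelled SK-N-BE(2), SRXN1 (1.68, adjusted p = 0.0298), NQO2 (0.71, adjusted p = 0.0103) and TXN (0.48, adjusted p = 0.0237) were called, 3 of 6, in a fit that called 156 of all genes. Of the 12 fits that each left out 1 library, this was the only 1 that called them. The highest edgeR adjusted p in those fits was 0.876 for SRXN1, 0.941 for NQO2 and 0.914 for TXN.

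Averaged over both line labels, ML210 raised NQO1 (log2 0.79, SE 0.0594, edgeR adjusted p = 4.56e-05), NQO2 (0.73, SE 0.118, adjusted p = 0.0187) and PRDX1 (0.34, SE 0.0584, adjusted p = 0.0171), 3 of 6 genes where 0.699% of all genes were called higher and 1.23% in either direction. The calls over all genes were 142 higher and 108 lower, and 237 and 75 with library totals in place of TMM. SRXN1 (0.70, adjusted p = 0.117), TXN (0.17, adjusted p = 0.232) and PRDX6 (0.10, adjusted p = 0.383) did not pass. With the batch block within each line 5 of the 6 were called, with SRXN1 at an adjusted p of 0.0326 and TXN at 0.0351, and 5 also without ML210 replicate 3 labelled SK-N-BE(2). The count fell to 1, NQO1, without replicate 2 of either SK-N-AS group, or without control replicate 1 or ML210 replicate 2 labelled SK-N-BE(2).

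Between the control libraries, NQO1 was 5.89-fold higher labelled SK-N-BE(2) than labelled SK-N-AS, PRDX6 was 1.49-fold higher and TXN was lower. NQO1 averaged 196.2 ± 18.9 and 33.3 ± 2.95 CPM labelled SK-N-BE(2) and SK-N-AS (SD, n = 3 each, log2 2.56, SE 0.0883, edgeR adjusted p = 1.83e-11). PRDX6 averaged 435 ± 30.8 CPM labelled SK-N-BE(2) and 292 ± 6.63 CPM labelled SK-N-AS (log2 0.57, SE 0.0723, adjusted p = 7.23e-06). TXN averaged 150.7 ± 8.40 CPM labelled SK-N-BE(2) and 200.5 ± 8.21 CPM labelled SK-N-AS (log2 -0.41, SE 0.0921, adjusted p = 0.00123), and with library totals in place of TMM its difference was -0.16 (adjusted p = 0.111). That scaling moved the median of all genes by 0.25, and it gave 8575 calls higher and 5550 lower, where TMM gave 6893 and 7154. With 33.9% of all genes called higher, 35.2% lower and 69.2% in either direction, 2 higher and 1 lower of 6 is no more than the background. The groups of 3 of the 6 did not overlap, 2 of them higher, against 74% and 36.3% of all genes. NQO2 (-0.03, 95% interval -0.40 to 0.34), PRDX1 (-0.08, -0.26 to 0.10) and SRXN1 (0.33, -0.30 to 0.96) did not pass, and under library totals NQO2 (0.22) and PRDX1 (0.17) changed sign. Mesenchymal neuroblastoma markers, 5 genes, summed to 2213 to 2830 CPM in controls labelled SK-N-BE(2) and 236.7 to 305 CPM in those labelled SK-N-AS; 7 adrenergic ones summed to 1024 to 1086 and 2586 to 2644 CPM, and their part in these differences was not tested. In bulk samples such as these, a change in how many cells make a transcript and one in the amount per cell cannot be told apart.

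The difference of NQO1 between controls, 2.56, stood beside ML210 responses of 0.67 labelled SK-N-BE(2) and 0.90 labelled SK-N-AS. Controls labelled SK-N-BE(2) already held 176 CPM or more, above the highest ML210 library labelled SK-N-AS at 65.2 CPM, so that NQO1 ordered the groups as ML210 and control labelled SK-N-BE(2), then ML210 and control labelled SK-N-AS, with no overlap between neighbours. NFE2L2, which encodes NRF2, averaged 128.2 and 60.3 CPM in the controls labelled SK-N-BE(2) and SK-N-AS (log2 1.09, edgeR adjusted p = 3.97e-09), and of 9 NRF2 regulators 5 were higher and 2 lower, where 33.9% of all genes were higher. Among them the partner gene MAFG (1.04, adjusted p = 3.62e-08) and the competitor BACH1 (1.03, adjusted p = 2.26e-07) were higher, and the partner gene MAFF (-0.91, adjusted p = 0.00637) and CUL3, of the ligase that degrades NRF2 (-0.44, adjusted p = 8.31e-06), were lower. KEAP1 was not called (-0.06, 95% interval -0.24 to 0.13, adjusted p = 0.564).

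Among the wider set of redox genes, the partner enzyme TXNRD1, which recharges thioredoxin, was called higher with ML210 labelled SK-N-BE(2) and not called labelled SK-N-AS. It had 591, 472 and 369 CPM with ML210 labelled SK-N-BE(2), against 269.8, 234 and 226 CPM in controls (log2 0.97, SE 0.137, edgeR adjusted p = 0.0111), and labelled SK-N-AS it stood at 493, 467 and 449 CPM with ML210, against 411, 378 and 382 CPM in controls (0.27, adjusted p = 0.765). TXNIP, which binds and inhibits thioredoxin, was not called with ML210 under either label (0.24, adjusted p = 0.151, and -0.12, adjusted p = 0.8). TXNRD1 was the one of 12 thioredoxin-system genes called with ML210 labelled SK-N-BE(2), where the list's median was 0.05 and that of all genes 0.00. None of 7 other peroxiredoxin and sestrin genes was called, with a median of -0.07, and of 8 glutaredoxin and methionine sulfoxide reductase genes MSRB1 alone was (0.38, adjusted p = 0.0272).

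Over all genes 0.818% were called higher with ML210 labelled SK-N-BE(2). The quinone and peroxide enzymes had 4 of 15 called higher there and none lower, with a median of 0.07. They were AIFM2, the ferroptosis suppressor that reduces coenzyme Q (0.83, edgeR adjusted p = 0.0478), carbonyl reductase CBR1 (0.42, adjusted p = 0.0144), CYB5R1 (0.91, adjusted p = 0.0323) and the cytochrome P450 reductase POR (0.36, adjusted p = 0.0107). Of 9 NRF2 regulators MAFG (0.54, adjusted p = 0.00909) and the KEAP1-binding receptor SQSTM1 (1.22, adjusted p = 0.0268) were higher and none lower. NFE2L2 (0.01, adjusted p = 0.982), KEAP1 (0.21, adjusted p = 0.296) and BACH1 (-0.02, adjusted p = 0.984) were not called.

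The next list, like the others, was chosen with earlier results of these data known, so its counts are not independent evidence. NRF2 targets outside the 6 genes had a median log2 difference of 0.97 labelled SK-N-BE(2). Of 27 tested, 17 were called higher there, against 0.818% of all genes, and none lower. They included heme oxygenase HMOX1 (3.72, edgeR adjusted p = 0.0256), OSGIN1 (2.47, adjusted p = 0.00341), the cystine carrier SLC7A11 (2.01, adjusted p = 0.0377) and GCLM of glutathione synthesis (1.38, adjusted p = 0.0144). The others included AKR1C2, ABHD4, TRIM16, TRIM16L, ME1, TXNRD1, GSR and PIR, the ferritin chains FTL and FTH1, and TKT and TALDO1 of the pentose phosphate pathway, with log2 differences of 0.33 to 1.39. AKR1C3 (0.89, adjusted p = 0.0138) and GCLC (0.29, adjusted p = 0.0241) were called in the mean response of both labels. Labelled SK-N-AS, 2 of 27 were called higher, TRIM16L (adjusted p = 0.00296) and PIR (adjusted p = 0.0188), against 0.0246% of all genes. The median there was 0.39, and the other 5 lists had no gene called. The direct test of the difference between the responses of the labels called none of the 27. TRIM16L shares sequence with TRIM16, so that its value is uncertain. The lists overlap in TXNRD1.

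**Figure D5:**
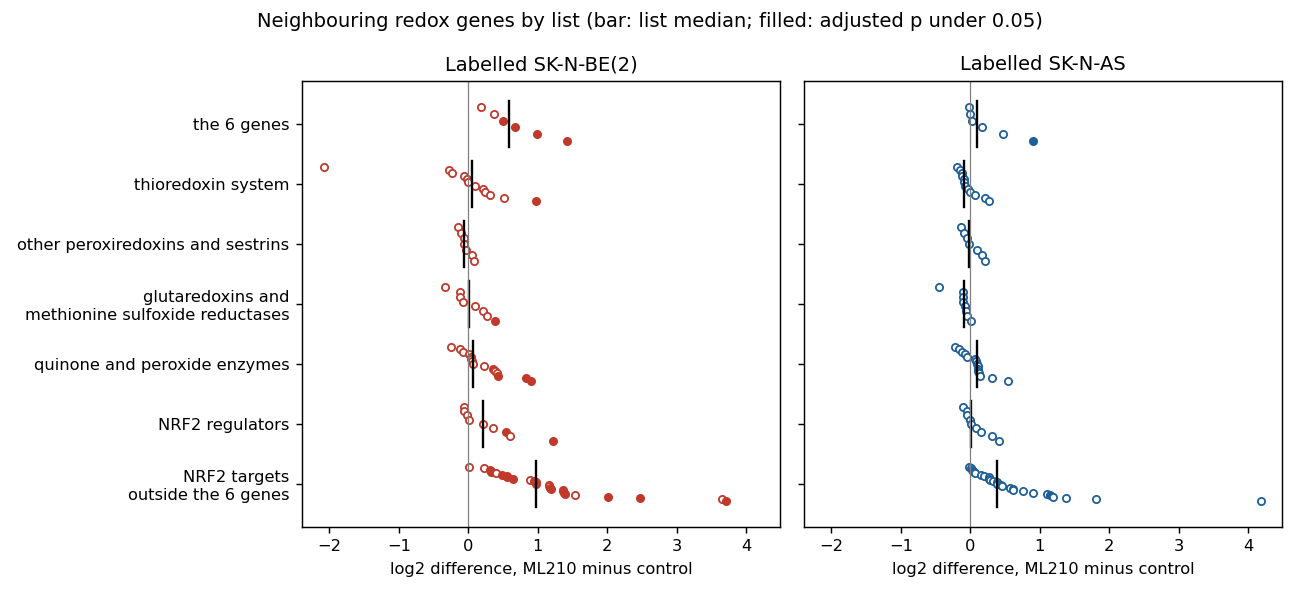
Log2 difference of ML210 minus control for every tested gene of each list, labelled SK-N-BE(2) at left and SK-N-AS at right; bars mark list medians and filled points were called. At left NRF2 targets outside the 6 genes have a median of 0.97 and the other peroxiredoxins and sestrins one of -0.07. The lists were chosen with earlier results of these data known.

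Between the controls, where 35.2% of all genes were called lower and 33.9% higher, the lists differed in their balance. Of 7 other peroxiredoxin and sestrin genes 6 were lower labelled SK-N-BE(2) and 1 higher, with a median log2 difference of -1.57. PRDX2 averaged 107.4 and 387 CPM (log2 -1.85, edgeR adjusted p = 4.49e-11), PRDX4 109.3 and 325 CPM (-1.57, adjusted p = 5.44e-11) and SESN1 4.71 and 16.4 CPM (-1.80, adjusted p = 3.25e-09) labelled SK-N-BE(2) and SK-N-AS. Of the thioredoxin system 7 of 12 were lower and 4 higher, with the mitochondrial pair TXN2 (-1.38, adjusted p = 1.48e-10) and TXNRD2 (-1.45, adjusted p = 7.36e-09) lower, nucleoredoxin NXN at 0.0493 CPM labelled SK-N-BE(2) and 20.7 CPM labelled SK-N-AS (-8.68, adjusted p = 9.41e-12), and TXNRD1 lower as well (-0.68, adjusted p = 0.000813). GSTP1, the transferase that recharges oxidized PRDX6, averaged 48.1 CPM labelled SK-N-BE(2) and 740.1 CPM labelled SK-N-AS (log2 -3.94, adjusted p = 5.49e-12), while PRDX6 was higher. Of 8 glutaredoxin and methionine sulfoxide reductase genes 4 were lower and 3 higher, of 15 quinone and peroxide enzymes 7 were lower and 3 higher, and of 27 NRF2 targets 7 were lower and 15 higher. Scaling by library totals turned the balance over all genes to 8575 higher and 5550 lower. Among these lists, the quinone reductase CRYZ (2.38, adjusted p = 7.24e-11) and MSRB3 (5.82, adjusted p = 3.04e-05) were higher labelled SK-N-BE(2). The fold of MSRB3 depends on the libraries, since the SK-N-AS controls held 0.0520, 1.02 and 1.14 CPM, lowest in batch 1 like the PTPRC traces. CYB5R3 (-1.24), GLRX3 (-0.43), MSRB1 (-0.42), PGD (-1.29) and AKR1C3 (-3.13) were lower there, with adjusted p of at most 0.000209.

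The genes most like each of the 6 over the 12 libraries, by the root mean square difference of centred log2 CPM among 10400 protein-coding genes, differed in how near they lay. For NQO1 the nearest, the kinase gene PRKCD, was 0.255 away, and its neighbours DOK1 and MMP17 0.267 each. Between controls PRKCD, DOK1 and MMP17 differed by 2.719, 2.366 and 2.455 (log2), against 2.56 for NQO1. Their ML210 differences were 0.318, 0.535 and 0.283 labelled SK-N-BE(2), against 0.67 for NQO1. Labelled SK-N-AS they were 0.487, 0.206 and 0.402, against 0.90. Nearness by this measure thus takes in the difference between labels and does not show a like ML210 response. NQO2 lay nearest to ME1, the cytosolic malic enzyme, at 0.0924, whose ML210 log2 differences were 0.97 labelled SK-N-BE(2) and 0.39 labelled SK-N-AS, then to TRIM16 at 0.16 and SNX29 at 0.185. SRXN1 lay nearest to the ferritin light chain FTL at 0.194, then to SQSTM1 at 0.217 and the lysosomal protease CTSD at 0.221. Nearer neighbours were found for TXN (RAB5IF 0.0626, TM2D2 0.064, SORD 0.0651), PRDX1 (ANXA7 0.0628, DAP3 0.067, PRKAG2 0.0898) and PRDX6 (TMX2 0.0518, P4HB 0.0627, HSD17B4 0.0674). Their own root mean square about their means was 0.20, 0.212 and 0.338, against 1.29 for NQO1 and 0.749 for SRXN1.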

How the data were processed

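The authors deposited whole-number counts per Ensembl gene, not normalized, for 12 libraries made with a stranded mRNA kit, per the labels. Per the submitters' processing notes reads were handled with featureCounts 2.0.5, HISAT2 2.2.1, FastQC and Trimmomatic (version 1.4 as written), and GRCh38 and hg38 are named as builds. Neither the annotation nor the settings for strand, multi-mapping or ambiguous reads are stated in the sources used here, so reads of overlapping genes and pseudogenes may be mixed or lost. Symbols came from a table of gene names for 61399 identifiers, and from GENCODE 29 for 145 more. Coordinates and exon lengths are those of GENCODE 29.

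Counts were filtered (filterByExpr, 20304 genes left), scaled by TMM and fitted over all 12 libraries with a coefficient per group in edgeR 4.0.16 under R 4.3.3 (robust glmQLFit and glmQLFTest, 8 residual degrees of freedom). Tests were two-sided, with Benjamini-Hochberg adjustment over all genes. Standard errors are the log2 difference over the root of F. On simulated counts of 20304 genes, 90% of 200 genes changed by 1 log2 unit were recovered labelled SK-N-AS and 93% labelled SK-N-BE(2). The 200 were drawn from genes with an average log2 CPM above 2, with counts simulated from the fitted spread. These shares do not extend to scarcer or more variable genes, or to a library that stands apart. In the data, HMOX1 labelled SK-N-AS was not called at a log2 difference of 1.81 (edgeR adjusted p = 0.576). Same-batch and other pairs use log2 CPM with a prior count of 2.

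Alternatives were library totals, DESeq2 size factors, DESeq2 1.42.0, no filter, replicate blocks, fewer groups and each library left out. Same-numbered libraries share a batch label, so the blocked fits are the paired alternative; the fit reported has no block. The correlation of deviations of ML210 and control libraries in the same batch was 0.096, 0.12 and 0.169 labelled SK-N-BE(2), against -0.1 to -0.007 in different batches, and 0.357, 0.068 and 0.121 labelled SK-N-AS, against -0.269 to 0.189. Labelled SK-N-AS the batches 2 and 3 thus correlated across batches (0.125 and 0.189) more than within them. The genes, lists and naming rule (the 6 genes, listed genes called with ML210, up to 3 a list between controls, and the 3 most alike genes of each) were chosen with earlier results of these data known. A few genes that the naming rule or the marker lists hold are not reported here by name.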

Additional observations from a re-analysis of the deposited data

Results flagged for a closer look

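2 of the genes named from the redox lists moved in opposite directions under the line labels in every same-batch pair. Only genes named from the lists, the 6 genes, MYCN and GPX4 were checked. The share of all genes that would be marked in this way was not determined. MSRB1, a selenoprotein that repairs oxidized methionine, differed between ML210 and control by 0.48, 0.36 and 0.30 labelled SK-N-BE(2) and by -0.15, -0.01 and -0.06 labelled SK-N-AS (log2). The test of the difference itself gave 0.46 (SE 0.107, edgeR adjusted p = 0.469). CYB5R3, a cytochrome b5 reductase, differed by 0.01, 0.03 and 0.07 labelled SK-N-BE(2) and by -0.03, -0.06 and -0.03 labelled SK-N-AS, and the difference of 0.08 had an adjusted p of 0.894. None of the 6 genes described above was marked in this way, and groups of 3 libraries were not tested for single outlying values.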

How the results depend on the processing

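Of the single-gene values under other settings, 384 kept direction and call, 28 lost the call, 15 gained it and 17 changed sign; the sign changes were all of uncalled differences near 0. With library totals, TXN (0.0346) and SRXN1 (0.0463) labelled SK-N-AS and NQO2 (0.22) and PRDX1 (0.17) between controls changed sign, and 0 of the 6 genes were lower between controls. SRXN1 labelled SK-N-AS was also positive without the filter (0.000269), with the replicate block shared by both labels (0.00574) and with its own 6 libraries (0.00497). Leaving out single libraries gave -0.0474 to 0.0123 for TXN, -0.101 to 0.0470 for SRXN1 and -0.00678 to 0.0696 for PRDX6 labelled SK-N-AS, and -0.0628 to 0.0380 for NQO2 between controls. With the groups of a comparison alone, 1 of the 6 genes was called labelled SK-N-BE(2) and 2 labelled SK-N-AS. The replicate block within each label gave 5 for the mean response. Without single libraries the counts ran from 1 to 5 labelled SK-N-BE(2), 0 to 3 for the difference of responses and 1 to 5 for the mean response.

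Over all genes, the calls labelled SK-N-BE(2) (279) were 790 with DESeq2, 556 without the filter, 455 and 1386 with the shared and the within-label replicate block, 51 with these groups alone, and 48 to 1242 without single libraries. Labelled SK-N-AS (6) they were 52 with DESeq2, 33 without the filter, 38 with the within-label block, 21 with these groups alone, and 3 to 6 without single libraries. The difference of responses (1) had 45, 24 and 85 under DESeq2, no filter and the within-label block, and 1 to 156 without single libraries. The mean response (250) had 825, 531 and 1240 in the same settings, and 63 to 1006 without single libraries. The cause of these changes was not tested. The replicate block changed no call of the 6 genes beyond those of TXN, PRDX6 and SRXN1 given above. SRXN1, with 404 to 1464 reads per group, has the widest intervals of the 6, and intervals cover these libraries only.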
